A study of Mus musculus with 6 samples.

Results

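The cytosolic ribosomal protein genes encode the proteins of the ribosome that translates mRNA outside the mitochondria. They were taken by symbol, as the names that begin with Rpl or Rps followed by a number with at most 1 letter a, l or x, by p0 to p2 or by a. Kinases, pseudogene names and mitochondrial ribosomal proteins stay outside this pattern. 81 of the 24062 symbols in the count tables matched, 49 of the large subunit (Rpl) and 32 of the small subunit (Rps). Transcripts were measured in the ventral dentate gyrus of male C57black 6 mice, the part of the hippocampal entry region that is often studied in stress. 3 libraries came from mice given chronic restraint stress and 3 from unstressed mice, which were the controls. All are labelled as biological replicates. How long the restraint lasted, the age of the mice and whether animals were pooled was not given in the sources used here, and p-values measure the spread between these libraries.

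A ribosome holds 1 copy of most of its proteins, and cells keep the mRNAs of these proteins at high and similar levels. Many of these mRNAs begin with a terminal oligopyrimidine (TOP) tract, an unbroken run of C and T (C and U in the RNA) at the start of the transcript. Through this tract mTOR signalling and the binding protein Larp1 regulate how strongly the mRNAs are translated, with less effect on how many there are. In neurons a part of these mRNAs is also found in dendrites and axons.

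The starts of 8 members are shown because the tract is the feature that textbooks give for the family and because not every annotated start holds it. They are RefSeq windows on GRCm38.p6 with 15 bases before and 15 bases from the annotated start, in the direction of the gene. Capitals mark a run of at least 5 C or T that reaches within 5 bases of the start.
Rpl35: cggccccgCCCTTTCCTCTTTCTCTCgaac
Rps6: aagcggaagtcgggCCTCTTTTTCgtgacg
Rplp2: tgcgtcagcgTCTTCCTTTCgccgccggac
Rps15a: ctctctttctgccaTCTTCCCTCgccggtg
Rps27: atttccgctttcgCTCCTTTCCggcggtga
Rps16: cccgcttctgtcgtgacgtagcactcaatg
Rpl9: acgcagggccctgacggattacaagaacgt
Rpl22: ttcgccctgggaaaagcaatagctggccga
These windows lie at chr2:39005117-39005146 on the minus strand for Rpl35, chr4:86857353-86857382 on the minus strand for Rps6 and chr7:141447636-141447665 on the plus strand for Rplp2. They lie at chr7:118116133-118116162 on the minus strand for Rps15a, chr3:90213634-90213663 on the minus strand for Rps27 and chr7:28350674-28350703 on the plus strand for Rps16. For Rpl9 the window is chr5:65391417-65391446 on the minus strand, and for Rpl22 it is chr4:152325711-152325740 on the plus strand. Of the 60 members with a RefSeq start in the table, 33 (55%) held such a run, read on the strand of the gene alone, against 31.5% of all 27025 genes in the table. The runs of members had a median length of 9 bases, against 6 bases over all genes. An annotated start can differ from the base where transcription begins by several positions, so a window without a run, such as those of Rps16, Rpl9 and Rpl22, does not say that the mRNA lacks the tract.

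Ribosomal protein mRNA levels in mice given chronic restraint stress were close to those in controls. Of the 74 members with enough counts for a test, 0 passed the threshold, an adjusted p of 0.05 by edgeR's quasi-likelihood test with Benjamini-Hochberg adjustment over all 14058 tested genes. Log2 fold changes, stress over control, ran from -0.32 to 0.21 with a median of -0.0088, against a median of 0.0038 over all tested genes. Of the members 30 (40.5%) had a positive value, against 51.0% of all tested genes. The fold changes of members were also small in size. The median size of the log2 fold change, without its sign, was 0.031 in the 74 members, against 0.074 in the 5530 other tested genes of the same abundance range. This range, an average log2 CPM of 5.26 to 9.03, is that of the 72 members above 5. Genes were not matched to members within it, and the median SE was 0.074 in members and 0.086 in the other genes. The same test called 4 of all tested genes, or 0.0285%, so a count of 0 among 74 members is near that background. At an unadjusted p under 0.05 there was 1 member, Rps16, or 1.35%, against 8.71% of all tested genes. DESeq2 and limma-voom also called 0 members. Without stress replicate 1 the test called 0 members as well, against 41 of 14188 tested genes, or 0.289%, and the members' median was -0.037 with 15 of 74 positive. Without stress replicate 2 the median was 0.020 with 50 positive, and without control replicate 1 it was 0.0072, so the sign of this small difference changed with the libraries used.

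Library totals were 9351979, 8575540 and 9626686 gene counts in stress replicates 1 to 3, against 8305753, 10107953 and 9329719 in control replicates 1, 2 and 3. Stress replicate 1 stood apart from the other 5 libraries in markers of cell types. The 14 choroid plexus epithelium genes summed to 7469 CPM there (counts per 1000000 gene counts), against 155 to 210 CPM elsewhere. The 9 striatal genes summed to 928 CPM, against 195 to 213 CPM elsewhere, the 9 ependymal genes to 101 CPM, against 13.06 to 15.04 CPM, and the 10 oligodendrocyte genes to 4726 CPM, against 2048 to 3198 CPM. The 10 dentate granule cell genes summed to 447 CPM, against 758 to 1019 CPM elsewhere. Ttr, the transthyretin gene of choroid plexus, was at 4171 CPM in that library, against 2.08 to 6.53 CPM in the others. Prox1, the transcription factor gene that defines granule cells, was detected in every library, at 47.5 CPM in stress replicate 1 and at 93.1 to 132 CPM in the others. The 10 astrocyte genes summed to 6738, 7810 and 7839 CPM in stress and 8792, 8888 and 7901 CPM in controls. The sums did not overlap, but stress replicate 3 and control replicate 3 were close. Of the 10 genes, 5 (50%) lay below all controls, against 9.03% of all tested genes, and 0 passed the threshold of the tests. The part of these differences in cell type markers in the ribosomal protein values was not tested, and values without stress replicate 1 are given beside the results that it moves most. In tissue samples such as these, a smaller number of cells of a type and less RNA per cell cannot be told apart.

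The family took about the same share of the counts in every library. Its summed level was 11952, 11306 and 11938 CPM in stress replicates 1 to 3, against 12252, 12086 and 11624 CPM in control replicates 1, 2 and 3. The groups overlapped, with the lowest library in stress and the highest in control. As shares these were 1.20%, 1.13% and 1.19% of gene counts in stress and 1.23%, 1.21% and 1.16% in controls. The Wilson 95% intervals of the shares were 1.12% to 1.14% in stress replicate 2 and 1.16% to 1.17% in control replicate 3, the lowest library of each group, and cover counting error only. The group means were 11732 ± 369 CPM in stress and 11987 ± 325 CPM in controls (SD, n = 3 each), a difference of -255 CPM or -2.13%, smaller than the SD of either group. With trimmed mean of M values (TMM) scaling the means were 11791 CPM in stress and 11931 CPM in controls.

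The balance between the subunits was constant to within a few percent. The summed CPM of large subunit genes over that of small subunit genes was 1.65, 1.62 and 1.62 in stress replicates 1 to 3, against 1.64, 1.62 and 1.65 in control replicates 1, 2 and 3. The mean ratio was 1.63 ± 0.015 in stress and 1.64 ± 0.014 in controls (SD, n = 3 each). The median log2 fold change was -0.013 over the 43 tested large subunit genes, of which 15 were positive, and -0.0072 over the 31 tested small subunit genes, of which 15 were positive. Without stress replicate 1 the medians were -0.040 and, for the small subunit, -0.025.

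A shift shared by the members was computed for each library as the median over the 74 tested members of log2(CPM + 0.5) minus the mean of the 3 controls. Stress replicates 1, 2 and 3 had shifts of -0.0067, -0.074 and -0.0030, against 0.032, 0.012 and -0.043 in control replicates 1, 2 and 3. Stress replicate 2 was the lowest library and control replicate 3 the next, and the other stress libraries lay between the controls. With TMM scaling, as in the tests, the shifts of stress replicates 1 and 3 turned to 0.027 and 0.0024, while that of stress replicate 2 was -0.071. Over all tested genes the same value was -0.035, -0.0046 and -0.0052 in stress and -0.011, 0.0083 and 0.0065 in controls, so the low level of the family in stress replicate 2 was not a shift of all genes. In stress replicate 2, 4 of the 74 members lay above their control mean, compared with 36 in each of the other stress libraries. 34 members (45.9%) had their lowest value of the 6 libraries in stress replicate 2, where 12.3% of all tested genes had theirs, and 1 member had its highest value there. In control replicates 1, 2 and 3 the members above the mean numbered 49, 47 and 15. Of all 14058 tested genes, 6163, 6854 and 6868 lay above their control mean in stress and 6538, 7512 and 7381 in controls. In control replicate 3, 16 members (21.6%) had their lowest value, where 12.5% of all tested genes had theirs. The spread of members around the shift, as the interquartile range, was 0.15 in stress replicate 1, 0.076 in stress replicate 2 and 0.091 in stress replicate 3. It was 0.10, 0.062 and 0.069 in control replicates 1, 2 and 3, so the widest spread lay in stress replicate 1. Over all tested genes it was 0.33, 0.21 and 0.26 in stress and 0.17, 0.14 and 0.15 in controls, also widest in stress replicate 1. The baseline is the mean of the same 3 controls, which by itself makes the spread in controls smaller.

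**Figure D1:**
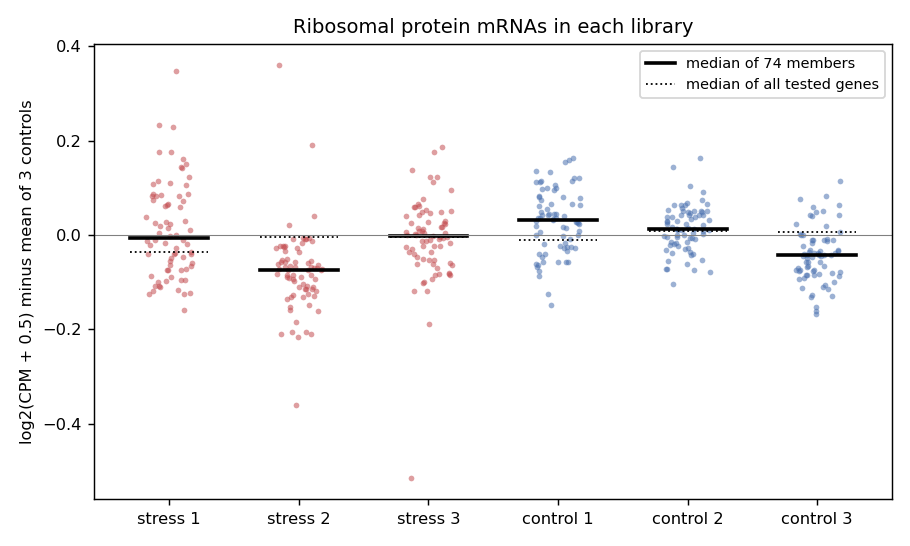
Each point is 1 of the 74 tested members, as log2(CPM + 0.5) minus the mean of the 3 controls (vertical axis), in each of the 3 stress (red) and 3 control (blue) libraries (horizontal axis). Solid lines mark the median of members, lowest at -0.074 in stress replicate 2, and dotted lines the median of all 14058 tested genes.

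Short and long members had similar median shifts in stress replicate 2, while in stress replicate 1 the short ones had the higher median. The 25 shortest tested members had 383 to 830 bases of merged exon and the 25 longest had 1223 to 5395. In stress replicates 1, 2 and 3 the shortest had median shifts of 0.063, -0.074 and 0.00052 and the longest -0.016, -0.067 and 0.00042. The 24 members of middle length had -0.038, -0.089 and -0.019, below both, so the medians did not fall steadily with length. In control replicates 1, 2 and 3 the shortest had 0.043, 0.0097 and -0.075 and the longest 0.028, 0.016 and -0.038. Across the 74 members the Spearman correlation of exon length with the deviation from the control mean was -0.26 in stress replicate 1 and 0.26 in control replicate 3, and between -0.21 and 0.12 in the other 4 libraries. These correlations describe genes that share a library and are not a test. The place of a median relative to 0 depends on the scaling, which moves all genes of a library alike. The 522 other tested genes of up to 1 kb had median shifts of 0.0061, -0.0064 and 0.035 in stress and -0.028, 0.020 and 0.020 in controls, so the order of the libraries differed from that of the short members.

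Rps16, a small subunit protein gene on chromosome 7 from 28350652 to 28353155 (GENCODE M21 on GRCm38), had the most negative log2 fold change. It was at 39.0, 32.9 and 29.5 CPM in stress replicates 1 to 3, against 38.2, 44.4 and 44.9 CPM in control replicates 1, 2 and 3. Stress replicates 2 and 3 lay below all controls, and stress replicate 1 lay just above control replicate 1. It had a log2 fold change of -0.32 (SE 0.12, 95% interval -0.60 to -0.05 from limma-voom), with an unadjusted p of 0.0333 and an adjusted p of 0.534 by edgeR's quasi-likelihood test. Without stress replicate 1 it was -0.45 with an adjusted p of 0.0897, which did not pass either. Rps16 also varied most among the libraries, with its highest library 1.52-fold above its lowest, where the median member had 1.14-fold and Rpl18 had the smallest range at 1.04-fold. For 68 of the 74 tested members this ratio was under 1.25.

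The next members on the lower side were Rps15a and Rpl9. Rps15a, of the small subunit, was at 149, 144 and 153 CPM in stress, against 170, 171 and 158 CPM in controls, with a log2 fold change of -0.15 (SE 0.067) and an adjusted p of 0.580. Rpl9, of the large subunit, was at 265, 249 and 276 CPM in stress, against 294, 289 and 282 CPM in controls, with a log2 fold change of -0.12 (SE 0.066) and an adjusted p of 0.688. For both genes every stress library lay below every control. Rpl11, which with Rpl5 binds the small ribosomal RNA of the large subunit and can restrain the p53 regulator Mdm2, had -0.081 (SE 0.064). Its values were 128, 129 and 133 CPM in stress and 144, 139 and 135 CPM in controls, again without overlap. Rpl17, Rpl8 and Rps6 also had all stress libraries below all controls. Rps6, whose phosphorylation is the usual readout of mTOR activity, was at 234, 232 and 234 CPM in stress, against 244, 239 and 239 CPM in controls, a log2 fold change of -0.030 (SE 0.059). In all, 7 of the 74 members (9.46%) lay wholly below the controls, where 9.03% of all tested genes did. The count of members is thus near the background.

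On the higher side Rps4l, which GENCODE classes as a transcribed processed pseudogene and which lies within Tmtc1 on the opposite strand, was at 12.5, 15.3 and 12.9 CPM in stress, against 11.92, 11.97 and 11.47 CPM in controls. All stress libraries lay above all controls, the only such case among the 74 (1.35%, against 5.68% of all tested genes). Its fold change was 0.21 on the log2 scale (SE 0.12, adjusted p 0.681). Reads of Tmtc1 may be included, as the strand setting of the counting was not given in the sources used here. Rps26, which sits where the mRNA leaves the small subunit, was at 59.7, 58.0 and 51.3 CPM in stress, against 52.1, 51.0 and 49.0 CPM in controls. Stress replicate 3 lay within the controls, and the estimate was 0.17 (SE 0.087) on the log2 scale, adjusted p 0.657, or 0.11 without stress replicate 1. Rps27l, a paralog of Rps27 that p53 induces, had 0.13 (SE 0.17), at 10.6, 8.16 and 8.00 CPM in stress and 8.91, 8.51 and 7.29 CPM in controls. Rpl22, which binds RNA outside the ribosome as well, had 0.094 (SE 0.081), at 100.1, 88.0 and 95.7 CPM in stress and 93.7, 85.2 and 89.9 CPM in controls. Rplp2, of the acidic stalk that recruits elongation factors, had 0.087 (SE 0.11), at 88.8, 75.2 and 75.3 CPM in stress and 84.9, 72.9 and 70.1 CPM in controls. For Rps27l, Rpl22 and Rplp2 the groups overlapped and stress replicate 1 was the highest library. Without it the log2 fold changes were -0.022 for Rps27l, 0.042 for Rpl22 and -0.0075 for Rplp2.

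**Figure D2:**
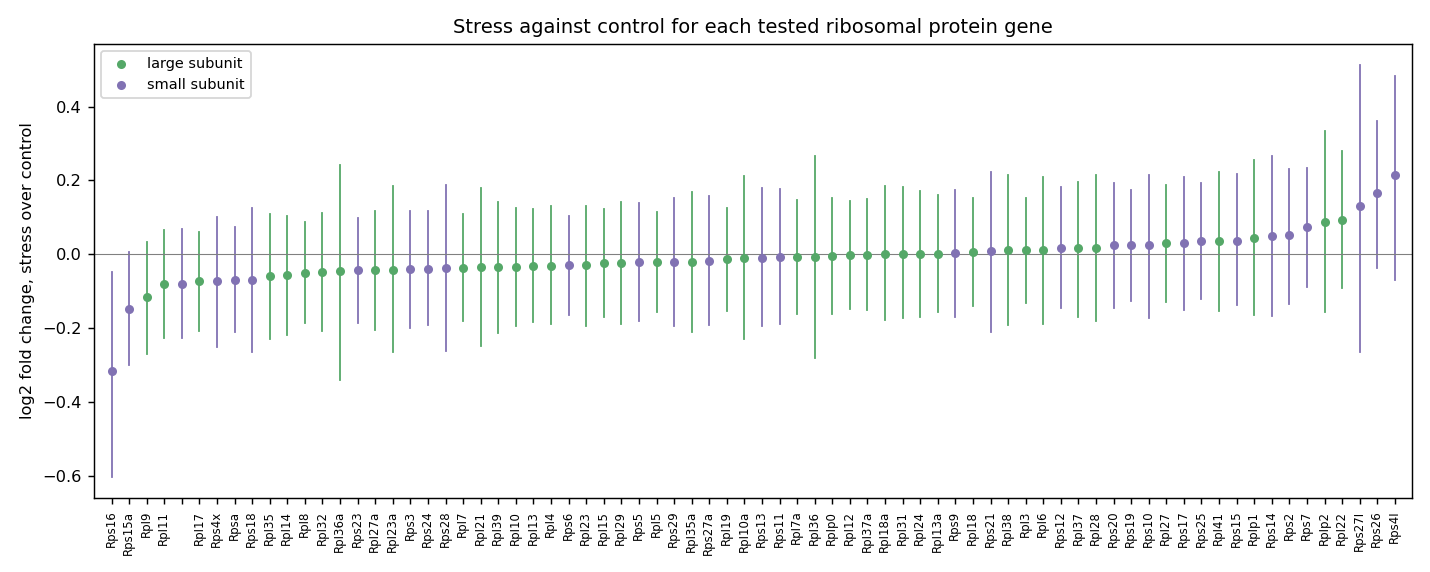
Log2 fold change of stress over control (vertical axis) for each of the 74 tested members in order of value, in green for the large and purple for the small subunit, from 3 stress and 3 control libraries. Points are edgeR estimates and lines are 95% intervals from limma-voom, which lie within 0.5 of 0 for all but Rps16 and Rps27l.

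Members with well-known roles elsewhere in the ribosome had log2 fold changes near 0. The other stalk genes Rplp0 and Rplp1 had -0.0051 (SE 0.069) and 0.045 (SE 0.092). Rpl5, the partner of Rpl11, had -0.022 (SE 0.059). Rpl3, which helps to form the peptidyl transferase centre, was at 525, 500 and 542 CPM in stress and 530, 521 and 520 CPM in controls, a log2 fold change of 0.012 (SE 0.062). Rps23, at the decoding centre, had -0.043 (SE 0.062), and Rps2 and Rps3, at the channel where mRNA enters, had 0.052 (SE 0.080) and -0.041 (SE 0.070). Rps27a, which is made as a fusion with ubiquitin, had -0.017 (SE 0.076). The 95% intervals of 72 of the 74 members lay within 0.5 of 0 on the log2 scale, a 1.41-fold change in either direction. The exceptions were Rps16 and Rps27l, the last with an interval of -0.26 to 0.51. The half-widths of these unadjusted intervals ran from 0.13 to 0.39 with a median of 0.17.

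The spread between libraries was small for most members. The biological coefficient of variation had a median of 7.58% in members, against 8.43% in other tested genes of the same abundance range and 10.5% in all tested genes. The variance of member counts over the 6 libraries was 3.17 times what counting error alone gives, as the median chi-square per degree of freedom against the library totals. Against the family's own total in each library it was 2.20 times. Against library totals it was 2.52 times for all tested genes and 4.50 times for other genes of the same abundance range. Rpl21 and Rps2 had the highest values among members, 14.1 and 13.6.

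Levels per exon length differed widely between members and hardly between groups. Among tested members the mean ran from 13.4 to 500.3 CPM per kb of merged exon, with a median of 149 and an interquartile range from 101 to 216. The Spearman correlation of the CPM means between the groups was 0.9978 over the 74 members. Rplp1 had the highest level, 505 ± 38.5 CPM per kb in stress and 495 ± 43.5 in controls (SD, n = 3 each). Rps29 followed with 407 ± 22.3 in stress and 417 ± 23.9 in controls, then Rpl3 with 387 ± 15.9 in stress and 387 ± 4.18 in controls. Rps21 had 333 ± 30.9 in stress and 335 ± 23.8 in controls, and Rpl23a 322 ± 24.6 in stress and 335 ± 34.1 in controls. Rps29 and Rpl3 differed by about their SD in stress, and Rps21 and Rpl23a by less than theirs. At the lower end of the tested members Rps4l had 14.4 ± 1.59 CPM per kb in stress and 12.5 ± 0.293 in controls, and Rps27l 15.4 ± 2.50 in stress and 14.2 ± 1.46 in controls. Rpl18, Rps20 and Rps15a followed, all with long annotated exons of 3413, 3706 and 5395 bases. Across the 74 members the level per kb had a Spearman correlation of -0.51 with exon length. Annotated exons that these cells do not use lower the level per kb of a gene, so the order is one of counts per annotated base.

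**Figure D3:**
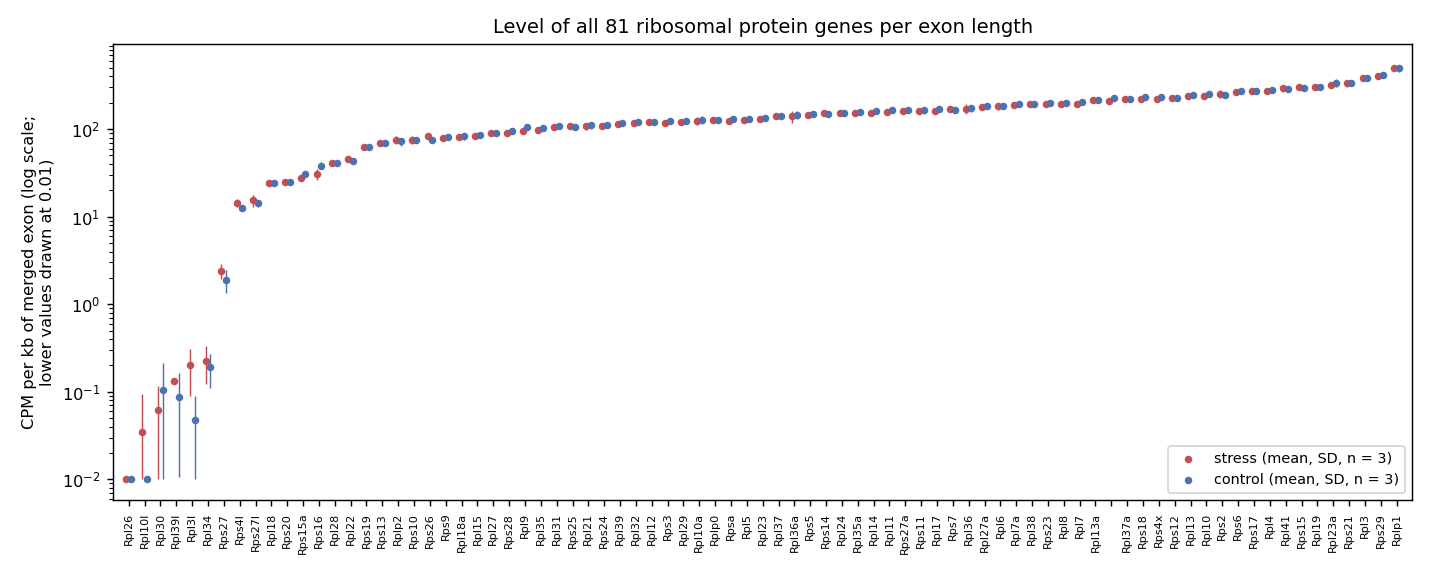
Level of each of the 81 members per kb of merged exon (vertical axis, log scale), in order of the mean, in stress (red) and control (blue) libraries. Points are means and lines SD over 3 libraries, and 7 members lie far below the other 74 in both groups.

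7 members were not tested because their counts were low in every library, between 0 and 13 counts. 3 of them are paralogs that stand in for a family member in other tissues. Rpl3l, found in striated muscle, had 4, 1 and 4 counts in stress and 1, 0 and 1 in controls, while its partner Rpl3 had the highest CPM of the family. Rpl10l, found in testis, had 1, 0 and 0 counts in stress and 0 in each control. Rpl39l, also known from testis, had 1 count in each stress library and 1, 1 and 0 counts in controls, while Rpl39 was at 68.3, 66.2 and 75.9 CPM in stress and 70.9, 71.0 and 75.9 CPM in controls. Where a gene had 0 counts, levels of up to 0.312 to 0.350 CPM in stress and 0.297 to 0.361 CPM in controls, worth 3 counts, could go unseen.

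The other 4 low members encode core ribosomal proteins. Rpl26 was listed at 0 in all 6 libraries. Rpl30 had 1, 0 and 1 counts in stress and 2, 0 and 1 in controls. Rpl34 had 3, 1 and 3 counts in stress and 1, 3 and 2 in controls, and Rps27 had 10, 8 and 13 in stress and 9, 6 and 9 in controls. The next lowest core member, Rps16, had a mean of 38.2 CPM. Whether the values of these 4 genes reflect the level of their mRNA was not tested. Each of them shares sequence with a copy that has a row of its own in the count tables. This was measured in the GENCODE transcripts, as the share of windows of 100 bases, the read length, that occur letter for letter in a transcript of another gene. Rpl26 shared windows with Gm15772, Rpl30 with Gm12191, Rpl34 with Rpl34-ps1 and Rps27 with Rps27rt, and these 4 rows held 0 counts in every library. Among the 74 tested members only Rpl7a and Rps26 shared windows with a row that held 0 counts throughout, with 4 and 63 windows. The shares of all windows found elsewhere were 36.8% for Rpl26, 53.5% for Rpl30, 31.0% for Rpl34 and 98.4% for Rps27. Over the tested members they ran from 0% to 91.6% with a median of 41.1%. The share of Rps27 lay above this range and those of Rpl26, Rpl30 and Rpl34 within it. In all, 70 of the 81 members shared at least 1 window with an annotated pseudogene, and reads from such windows may be lost or assigned to the copy. Whether this lowered any count was not tested. Across the 74 tested members the level per kb had a Spearman correlation of 0.18 with the share of windows found elsewhere. Reads that the counting marked as ambiguous numbered 58841, 48876 and 56122 in stress and 48731, 56065 and 54295 in controls.

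The 8 tested genes listed as ribosomal proteins with names outside the pattern had log2 fold changes from -0.063 to 0.081. Their median was 0.028, against -0.0088 in members, and 5 (62.5%) were positive, against 40.5% of members. The median size without sign was 0.061, against 0.031 in members. Fau, which encodes a ubiquitin-like fusion with a small subunit protein, was at 109, 105 and 109 CPM in stress and 105, 108 and 98.7 CPM in controls, a log2 fold change of 0.064 (SE 0.068). Rps3a1 had -0.059 (SE 0.082), and Gnb2l1, the scaffold protein gene also called Rack1, -0.063 (SE 0.072). None of these passed.

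Among other genes of translation 0 passed the threshold in 3 lists. Their log2 fold changes ran from -0.37 to 0.060 for elongation factors and further TOP mRNAs and from -0.12 to 0.22 for ribosome biogenesis. For the list of initiation factors they ran from -1.10 to 0.26. The -1.10 is that of Eif4ebp1, a translation repressor with 4 to 21 counts per library, which is also in the mTOR list below. The list of elongation factors and further TOP mRNAs had 0 of 22 tested genes past the threshold, a median log2 fold change of -0.0061, or -0.033 without stress replicate 1, and 10 positive values. Eef1g, of the elongation factor complex, was at 211, 234 and 231 CPM in stress and 248, 251 and 253 CPM in controls, with all stress libraries lower, a log2 fold change of -0.14 (SE 0.062) and an adjusted p of 0.567. Eef1a1 and Eef2, which deliver aminoacyl-tRNA and move the ribosome along, had 0.060 (SE 0.070) and -0.068 (SE 0.066). Initiation factors had 0 of 32 past the threshold and a median of 0.013, which turned to -0.017 without stress replicate 1. Ribosome biogenesis genes had 0 of 35 past the threshold and a median of 0.021, or 0.040 without that library. Of the 35, 4 (11.4%) lay above all controls, against 5.68% of all tested genes, and 1 (2.86%) below, against 9.03%. Both sides together came to 14.3%, near the 14.7% of all tested genes. Polr1a, the large subunit of the polymerase that makes ribosomal RNA, was at 72.2, 59.5 and 60.2 CPM in stress and 53.6, 58.0 and 54.8 CPM in controls, with a log2 fold change of 0.22 (SE 0.098) and an adjusted p of 0.583. Its highest library was stress replicate 1, and leaving it out gave 0.11 on the log2 scale.

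In the mTOR pathway list 13 of 26 tested genes had a positive log2 fold change, with a median of 0.0016, or 0.022 without stress replicate 1. Of the 26, 6 (23.1%) lay below all controls, against 9.03% of all tested genes, and 1 (3.85%) above, against 5.68%. At the threshold 0 genes passed as higher and 1 as lower, where 0.0285% of all tested genes passed. The gene past the threshold was Ddit4l, whose product restrains mTOR signalling. It was at 8.23, 10.4 and 7.17 CPM in stress and 24.2, 23.4 and 26.2 CPM in controls, a log2 fold change of -1.51 (SE 0.14) with an adjusted p of 0.0456. Without stress replicate 1, Ddit4l had -1.49 with an adjusted p of 0.0134 by edgeR's quasi-likelihood test. With the replicate number as a block, or without stress replicate 3 or any control library, 0 genes of the whole table passed, Ddit4l included. Deptor, an inhibitor within the mTOR complexes, was at 22.2, 29.9 and 18.1 CPM in stress and 36.6, 29.3 and 33.2 CPM in controls, with overlap, a log2 fold change of -0.49 (SE 0.17) and an adjusted p of 0.521. Eif4ebp1, the translation repressor that mTOR inactivates, was at 0.428, 1.28 and 1.14 CPM in stress and 2.53, 2.08 and 1.61 CPM in controls and did not pass, with a log2 fold change of -1.10 (SE 0.42) and an adjusted p of 0.521, or -0.76 without stress replicate 1. Larp1, the binding protein of the TOP tract, was at 129, 134 and 138 CPM in stress and 125, 122 and 124 CPM in controls, with 0.13 (SE 0.063) and an adjusted p of 0.611. It is named outside the rule for its role. RNA levels do not measure how actively the ribosomal protein mRNAs were translated.

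The nuclear genes of the mitochondrial ribosome and of the respiratory chain had their own order of libraries. The 76 tested mitochondrial ribosomal protein genes had median shifts of 0.047, 0.029 and 0.048 in stress replicates 1 to 3, against -0.054, 0.023 and 0.046 in control replicates 1, 2 and 3. Their median log2 fold change was 0.048, with 53 positive (69.7%, against 51.0% of all tested genes) and 0 past the threshold. Mrpl38, of the large mitochondrial subunit, had the smallest p of this list, at 31.2, 29.6 and 29.4 CPM in stress and 23.4, 27.5 and 25.9 CPM in controls, a log2 fold change of 0.25 (SE 0.093) and an adjusted p of 0.532. The 70 tested respiratory chain genes had median shifts of 0.13, -0.013 and 0.047 in stress and -0.042, -0.0010 and 0.030 in controls. Their median log2 fold change was 0.073, or 0.024 without stress replicate 1. Of the 70, 59 (84.3%) were positive, against 51.0% of all tested genes, and 0 passed the threshold. Control replicate 1, where the cytosolic family was highest, was the lowest library for both lists, and control replicate 3, where the family was lowest among controls, was the highest control.

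**Figure D4:**
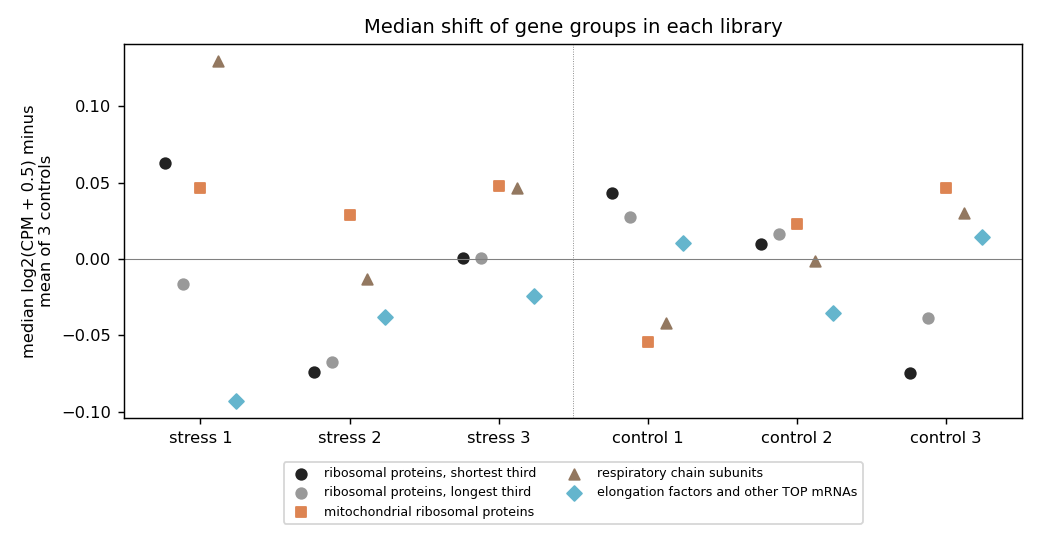
Median shift of each gene group (vertical axis, log2(CPM + 0.5) minus the mean of the 3 controls) in the 3 stress and 3 control libraries (horizontal axis). The shortest ribosomal protein genes lie above the longest in stress replicate 1, at 0.063 against -0.016 on library totals, and the mitochondrial ribosomal and respiratory chain genes follow a different order of libraries.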

How the data were processed

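Each library has a deposited file of raw counts by gene symbol, as whole numbers. Tools listed in the submitters' processing notes are HTSeq 0.6.1, TopHat2 2.0.9, edgeR 3.12.0, Trimmomatic 0.33 and FastQC 0.11.3, with the builds mm10 and GRCm38 and no stated role. Annotation, strand setting and treatment of multiply mapped reads were not given in the sources used here. Per the labels and the series' design text, total RNA was depleted of ribosomal RNA, made into stranded libraries and sequenced as single reads of 100 bases, with all libraries pooled. Reads assigned to no feature made up 59.5% to 63.1% of listed reads, and ambiguous reads 0.211% to 0.253%. Both rows were left out of totals and tests.

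CPM values here use the gene total of each library. Tests were run in R 4.3.3 with edgeR 4.0.16 on all 14058 symbols kept by filterByExpr, with TMM scaling, group as the only term and two-sided quasi-likelihood F-tests, and p-values were adjusted by Benjamini-Hochberg. SE and 95% intervals come from limma 3.58.1 (voom). Log2 shifts use a pseudocount of 0.5 CPM. Exon lengths and positions come from GENCODE M21, which matched 94.4% of symbols and all 81 members. The fit was tested on simulated counts, in which every planted change was larger than those estimated here for members. The most similar libraries still differed by more than counting noise (chi-square per degree of freedom 2.97), so none was counted as a duplicate. Named with a fold change by rule were the 5 tested members with the most positive and the 5 with the most negative value, those past the threshold, and the genes with the smallest p of a list, of which some are not reported here. Named by rule for their level were the highest and lowest per kb and the paralogs. Members wholly below controls and those with textbook roles are named outside that rule, after their values were seen. The members and lists were chosen with earlier results of these data known. Alternatives were other scalings, filters and tools, a looser threshold (0.10), a block for the replicate number, and the omission of each library in turn.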

Additional observations from a re-analysis of the deposited data

How the results depend on the processing

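No alternative called a member, and the lowest adjusted p of any member was 0.0897, for Rps16 without stress replicate 1. The count over all genes, 4 by edgeR's quasi-likelihood test, was 107 by DESeq2, 1 by limma-voom, 0 with the replicate number as a block and from 0 to 41 with 1 library left out. The numbers were not taken as pairs, since the labels give no pairing and the deviations of same-numbered samples correlated at 0.14, -0.0076 and 0.042. The members' median log2 fold change ran from -0.037 without stress replicate 1 to 0.020 without stress replicate 2, and the members with a positive value numbered 30 in the full fit and 15 to 50 with 1 library left out and 20 (27.0%, against 40.5%) on library totals alone. Without stress replicate 1, Rplp2 turned to -0.0075 and Rps27l to -0.022. Leave-one-out ranges were -0.0075 to 0.18 for Rplp2 and -0.022 to 0.22 for Rps27l. Shifts per library under other scalings, a pseudocount of 1 or without the filter moved by less than the SD of the control shifts, 0.039, but the sign turned for stress replicate 1 (-0.0067, against 0.027 with TMM and 0.030 with relative log expression) and stress replicate 3 (-0.0030, against 0.0024 and 0.0050). With all members that had a count, these shifts were 0.0026 and 0.00021. The depth limits the 7 members with at most 13 counts.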
